A study of Mus musculus with 10 samples.

Results

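The mouse MBT and Scm family genes Sfmbt1, Sfmbt2, L3mbtl2, L3mbtl3, Mbtd1, Scmh1, Scml2 and Scml4 were followed in nascent RNA of mouse embryonic stem cells. They are 8 of the 24901 genes of an intronic expression table. They were taken from the table by symbol, and the set was chosen by family with the values of all 8 columns already known, above all the difference of Sfmbt2 between Eed_null and CJ7_WT. Their levels, changes and adjusted p-values are therefore descriptions of these libraries, not independent tests. The study used Bru-seq, in which cells take up bromouridine (BrU, 2 mM for 10 min) and the RNA made in that time is purified with an antibody, depleted of ribosomal RNA and turned into libraries. The values are intronic RPKM, in which a gene's intron reads are divided by its intron length and the library's depth, so levels can be set side by side between genes.

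The 10 samples form 5 groups of 2. EloA_WT holds wild-type Elongin A, part of a factor that helps RNA polymerase II elongate, while EloA_K754M and EloA_K754R are edited lines in which 1 lysine of Elongin A (K754) is replaced by methionine or arginine. Each of these 3 groups has 2 columns, 1 per library. CJ7_WT is a wild-type embryonic stem cell line, and Eed_null cells lack Eed, a subunit of the histone methyltransferase complex PRC2; each of these groups has 1 pooled column, so no spread between replicates can be given for them. All groups were grown with LIF, PD0325901 (1 µM) and CHIR99021 (3 µM). The protocols name CJ7 cells, whereas the line field reads CCE28 for EloA_WT and Eed_null and CJ7 for the others, and the Eed_null samples carry the genotype EloA null. Groups follow the sample titles and column names, and a difference of line between EloA_WT and the mutants, or between Eed_null and CJ7_WT, cannot be told apart from the genotype. The number of clones per edited line is not given. Nothing says that replicates came from separate cultures, so p-values measure the spread between these libraries, which may be technical. One protocol describes growth on fibroblast feeders that were then depleted and another describes feeder-free dishes.

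MBT repeats are protein modules that recognise mono- and dimethylated lysine, and many proteins that carry them belong to the Polycomb group or work beside it in keeping genes silent. PRC2 places methyl groups on lysine 27 of histone H3, PRC1 complexes compact or ubiquitinate the marked chromatin, and Eed is needed for PRC2 activity. The Sfmbt proteins are relatives of the fly protein Sfmbt, which is brought to DNA by a YY1-like factor. The Scm family (Scmh1, Scml2 and Scml4) is related to fly Sex comb on midleg and works with canonical PRC1. Of the others, L3mbtl2 is a subunit of the variant complex PRC1.6, L3mbtl3 works with the demethylase LSD1, and Mbtd1 is a subunit of the histone acetyltransferase complex TIP60. Sfmbt2 is an imprinted gene that is transcribed from the paternal copy in the early embryo and trophoblast, and it carries a large microRNA cluster in its introns.

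The promoter windows of Sfmbt2, Scml2 and Sfmbt1 are shown because these 3 genes had the differences described below. They are RefSeq windows of 300 bases on GRCm38.p6 (250 bases before and 50 after the annotated start), given 5′ to 3′ on the strand of the gene, with CpG dinucleotides in capitals. Sfmbt2 has 2 such windows, at chr2:10370201-10370500 and chr2:10372186-10372485, both on the plus strand. The Scml2 window is at chrX:161162500-161162799 and that of Sfmbt1 at chr14:30714917-30715216, both on the plus strand.
Sfmbt2 window 1: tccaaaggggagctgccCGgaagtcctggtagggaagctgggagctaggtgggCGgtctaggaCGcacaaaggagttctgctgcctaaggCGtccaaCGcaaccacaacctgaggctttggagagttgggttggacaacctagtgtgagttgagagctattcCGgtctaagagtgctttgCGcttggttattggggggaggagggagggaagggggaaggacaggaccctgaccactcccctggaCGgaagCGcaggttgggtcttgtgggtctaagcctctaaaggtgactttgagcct
Sfmbt2 window 2: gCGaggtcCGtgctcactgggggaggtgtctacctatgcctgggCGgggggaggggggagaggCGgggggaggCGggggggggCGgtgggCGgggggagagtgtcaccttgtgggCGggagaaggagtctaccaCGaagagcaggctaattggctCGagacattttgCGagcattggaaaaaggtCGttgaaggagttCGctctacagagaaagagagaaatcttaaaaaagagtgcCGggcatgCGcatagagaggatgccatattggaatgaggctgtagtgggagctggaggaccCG
Scml2: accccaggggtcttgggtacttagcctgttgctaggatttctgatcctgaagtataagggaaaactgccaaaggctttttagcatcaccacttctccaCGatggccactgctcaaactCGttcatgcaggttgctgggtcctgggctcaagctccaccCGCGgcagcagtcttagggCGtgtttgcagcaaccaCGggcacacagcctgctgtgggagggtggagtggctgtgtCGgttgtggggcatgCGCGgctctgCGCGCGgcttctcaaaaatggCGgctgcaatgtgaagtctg
Sfmbt1: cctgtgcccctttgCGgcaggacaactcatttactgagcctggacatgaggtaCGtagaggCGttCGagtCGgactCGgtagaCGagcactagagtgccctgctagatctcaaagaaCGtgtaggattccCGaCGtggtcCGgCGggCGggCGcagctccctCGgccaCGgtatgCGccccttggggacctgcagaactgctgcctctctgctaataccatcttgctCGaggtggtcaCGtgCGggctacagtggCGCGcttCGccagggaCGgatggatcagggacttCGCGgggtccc

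Windows were found for 7 of the 8 genes, 11 windows in all, with none for Scml4. The median over all 32851 windows of the table was 7 CpG. The Sfmbt2 windows held 9 and 16 CpG, Scml2 13 and Sfmbt1 26, which put them above 54.2%, 67.0%, 62.1% and 83.1% of all windows. L3mbtl2 had 17. The richest were Scmh1 window 1 with 54 and the L3mbtl3 windows with 44 and 42, whereas Scmh1 window 2 had 0, and the Mbtd1 windows had 41 and 25. The letters CCATNTT, the core of the site bound by YY1 and searched on both strands, occurred 1 time each in Sfmbt2 window 2, Scml2 and Sfmbt1, against 16.1% of all windows. The E-box CACGTG, the site of the Mga and Max proteins of PRC1.6, occurred 2 times in Mbtd1 window 1 and 1 time in Sfmbt1, against 7.15% of all windows. Methylation or binding at these windows was not measured.

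Recovered intronic reads numbered 26371990 to 39197979 in the 6 Elongin A libraries, and the pooled columns held 86767080 for CJ7_WT and 72397766 for Eed_null. Introns of Eed were still read at 7.97 RPKM in Eed_null against 10.0 in CJ7_WT, and those of the Elongin A gene, Tceb3, at 1.12 to 2.03 in the 6 libraries; neither checks a label, since the Eed allele is not described and a substitution does not show in introns. Markers of embryonic stem cells (9 of 10 in the table, Sox2 absent) summed to 140 to 186 RPKM in every column. The 12 embryonic fibroblast markers summed to 14.7 and 15.2 in EloA_WT, then 17.9 and 19.8 in EloA_K754M, 20.2 and 22.4 in EloA_K754R, 20.8 in CJ7_WT and 19.8 in Eed_null. In both mutants 12 of 12 of them had a positive change against EloA_WT, where the medians of all tested genes were -0.06 and -0.14. The smallest were 0.07 for Fn1 in EloA_K754M and 0.02 for Twist1 in EloA_K754R. Of the 12, 1 rose in EloA_K754R, the matrix protein gene Tnc (log2 0.82, limma adjusted p = 0.0438), where 0.686% of all genes rose. The part of the difference in fibroblast markers in the members' changes below was not tested. Replicate 2 of each Elongin A group had more reads in genes that are almost silent: the median RPKM of 6748 genes under 0.05 RPKM in both pooled columns was 0.0067, 0.0073 and 0.0084 in the first libraries and 0.0329, 0.1045 and 0.0422 in the second.

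Over the 8 columns Sfmbt2 spanned 24.8-fold from its lowest to its highest column, whereas Sfmbt1 spanned 1.80-fold. In CJ7_WT the order of level was Mbtd1 (4.65 RPKM), L3mbtl2 (3.17), Sfmbt1 (2.47), Scml2 (1.38), Scmh1 (0.998), L3mbtl3 (0.578), Sfmbt2 (0.410) and Scml4 (0.0133). The sum over the 8 genes was 13.7 RPKM in CJ7_WT and 21.1 in Eed_null, and Sfmbt2 made up 3.00% of the first and 48.2% of the second. The other 7 genes together came to 13.3 and 10.9 RPKM.

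**Figure D1:**
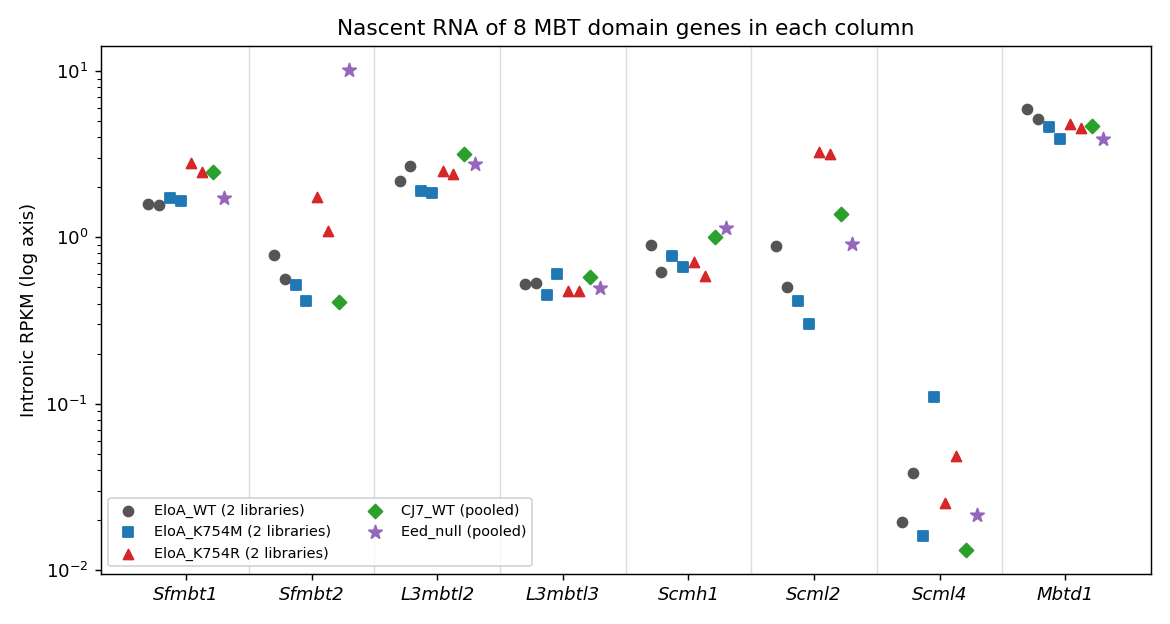
Intronic RPKM (log axis) of the 8 genes, with 1 point per column: circles EloA_WT, squares EloA_K754M, triangles EloA_K754R (2 libraries each), diamonds pooled CJ7_WT and stars pooled Eed_null. The star of Sfmbt2 lies at 10.2 against at most 1.74 in its other columns, and the EloA_K754R points of Scml2 lie at 3.25 and 3.19 against at most 1.38 elsewhere.

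Sfmbt2 differed more between Eed_null and CJ7_WT than between any Elongin A groups. Its level was 10.2 RPKM in Eed_null, from 165605 reads, and 0.410 in CJ7_WT, from 7995 reads. The ratio was 24.8 (exact 95% interval 24.2 to 25.3, which covers counting error only). On the scale log2(RPKM + 0.1) used for all genes, which understates changes of low genes, the difference was 4.33, where all 14890 genes compared had a median of 0.11. Only 15 genes had a larger ratio; 13 of them were listed at 0 in CJ7_WT and 1 of them had 0.1 RPKM or more there (0.541). This is 1 pooled column against 1, so there is no replicate check and no test. In bulk RNA, more cells that transcribe a gene and more RNA per cell cannot be told apart.

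None of the other 6 genes compared between these columns was past 2-fold. Of 7 compared, 1 was past 2-fold higher and 0 lower; over all genes 7.78% were past 2-fold in either direction, 6.12% higher and 1.67% lower. Sfmbt1, the paralog of Sfmbt2, stood at 2.47 RPKM in CJ7_WT and 1.73 in Eed_null (log2 -0.49), and the germline PRC1 partner Scml2 at 1.38 and 0.908 (-0.56). The differences were -0.20 for L3mbtl2, -0.19 for L3mbtl3, -0.25 for Mbtd1 and 0.17 for Scmh1. Of the 7, 5 were below 0, as were 38.2% of all genes, and their median was -0.20. With both columns brought to 1 median over all genes, Sfmbt2 was at 4.17, Scmh1 at 0.01 and Scml2 at -0.72. Scml4, with 59 reads in CJ7_WT and 80 in Eed_null, was too low to be compared.

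**Figure D2:**
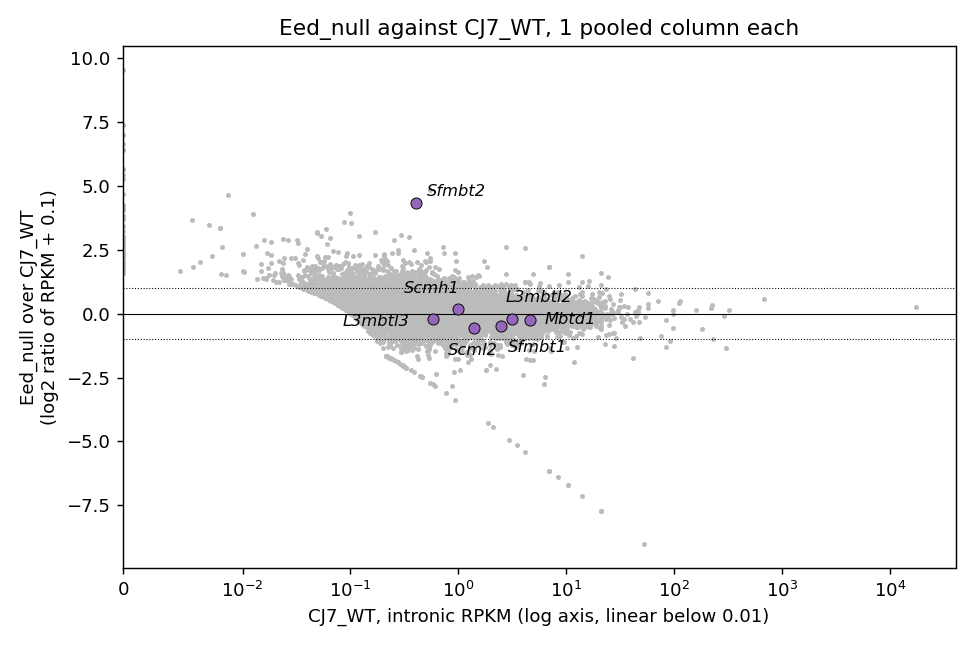
Each grey point is 1 of 14890 genes, with its level in CJ7_WT (RPKM, log axis) against the log2 ratio of RPKM + 0.1 in Eed_null over CJ7_WT; dotted lines mark 2-fold and purple points the 7 compared members. Sfmbt2 lies at 4.33 and the other 6 between -0.56 and 0.17.

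The genes beside Sfmbt2 did not share its level, but Itih5, Prkcq and Gm13261 were also higher in Eed_null. In the order of the annotation, Itih5 on one side stood at 0.0132 RPKM in CJ7_WT and 0.153 in Eed_null (log2 1.16). Prkcq on the other side stood at 0.0054 and 0.0257 (0.25). Both were under the filter for the comparison. Itih2 and Gm13264 stood at no more than 0.0104 in both columns, and Gm13293 was listed at 0. Gm13261, which overlaps Sfmbt2 on the opposite strand, stood at 0.541 in CJ7_WT and 2.82 in Eed_null (log2 2.19). Whether the counting used strand is not given in the sources used here, so reads of Gm13261 and Sfmbt2 cannot be told apart where they overlap. The span of Sfmbt2 also holds 119 annotated microRNA genes, and nascent reads of their precursors fall in its introns. Sequences of the microRNAs were not used here.

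**Figure D3:**
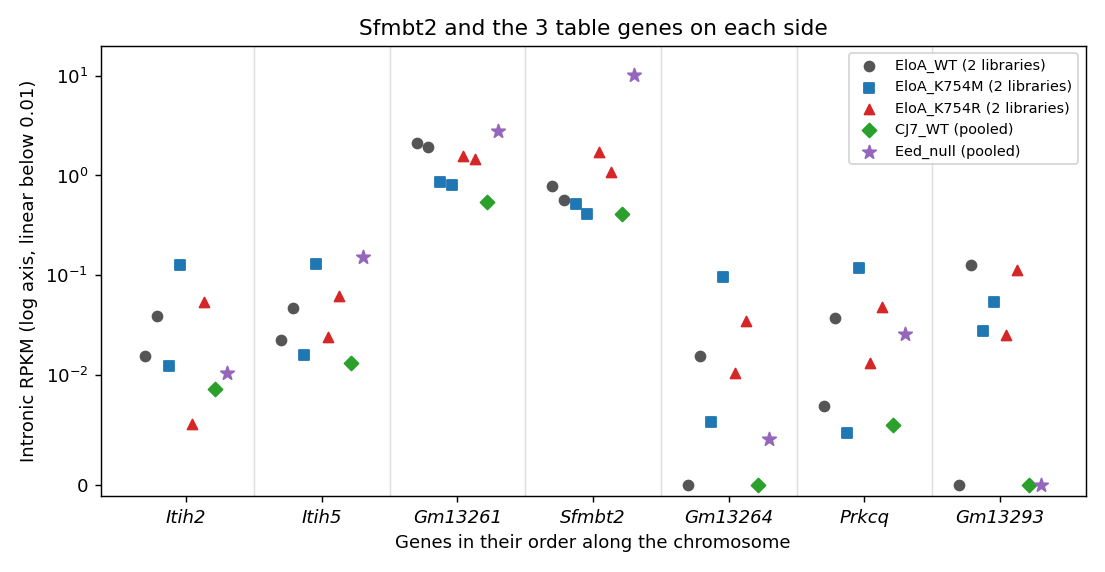
Intronic RPKM (log axis, linear below 0.01) of Sfmbt2 and the 3 table genes on each side in chromosome order, 1 point per column with the symbols of the plot of all members. Sfmbt2 and Gm13261 are the genes with Eed_null above 1 RPKM, at 10.2 and 2.82.

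Among the Elongin A libraries Sfmbt2 was highest in EloA_K754R. Its RPKM was 0.781 and 0.566 in EloA_WT, 0.519 and 0.415 in EloA_K754M, and 1.74 and 1.09 in EloA_K754R. Both EloA_K754R libraries lay above the other 4 and both EloA_K754M libraries below both EloA_WT libraries, and the EloA_K754R libraries differed from each other by more than the EloA_WT and EloA_K754M groups did. The log2 change was 0.95 (SE 0.27) in EloA_K754R against EloA_WT, with a limma adjusted p of 0.103 that became 0.0297 with the replicate number as a block and 0.0364 with voom on recovered reads. Between EloA_K754M and EloA_K754R it was -1.39, with an adjusted p of 0.098, 0.0401 with that block and 0.0169 with voom. In EloA_K754M against EloA_WT it was -0.44 (SE 0.27, adjusted p = 0.503). The 1243 tested genes of chromosome 2, which carries it, had a median of -0.09 in EloA_K754R, and Sfmbt2 was above 98.2% of them. Its highest Elongin A value, 1.74, was still well under the 10.2 of Eed_null, a column from other cells. Gm13261 had another order: 2.11 and 1.92 in EloA_WT, 0.853 and 0.795 in EloA_K754M, and 1.58 and 1.45 in EloA_K754R, and it fell by 1.19 on the log2 scale in EloA_K754M (adjusted p = 0.0490).

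Sfmbt1 rose in EloA_K754R. Its RPKM was 1.59 and 1.57 in EloA_WT, 1.73 and 1.65 in EloA_K754M, and 2.82 and 2.46 in EloA_K754R. Both EloA_K754R libraries were above the other 4, at about the 2.47 of pooled CJ7_WT, which was itself above both EloA_WT libraries. The log2 change against EloA_WT was 0.70 (SE 0.12, limma adjusted p = 0.0463) in EloA_K754R and 0.09 (SE 0.12, adjusted p = 0.775) in EloA_K754M, and -0.61 (adjusted p = 0.102) between the mutants. The 505 tested genes of its chromosome, 14, had a median change of 0.25 in EloA_K754R, where all 15161 genes had -0.14. Of them 14 rose and 2 fell, and Sfmbt1 was above 89.3% of them. Of the genes near it, Tkt, Prkcd and Tmem110 had changes between 0.17 and 0.26, and none of these was called.

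Scml2 had the widest change of the set among the Elongin A libraries. Its RPKM was 0.891 and 0.501 in EloA_WT, 0.415 and 0.302 in EloA_K754M, and 3.25 and 3.19 in EloA_K754R, and the 3 groups did not overlap. In EloA_K754R it rose by 2.11 on the log2 scale (SE 0.27, limma adjusted p = 0.0319), a 4.30-fold difference on the offset scale that was the 41st highest of 15161 genes. In EloA_K754M the change was -0.76 (SE 0.27, adjusted p = 0.267). Between the mutants it was -2.87 (SE 0.27, adjusted p = 0.0294), with EloA_K754M the lower. Pooled CJ7_WT, at 1.38, lay above both EloA_WT libraries and below both EloA_K754R libraries, and Eed_null, at 0.908, stood near the upper EloA_WT library.

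The X chromosome, which carries Scml2, had a median change of 0.26 in EloA_K754R over 523 tested genes, of which 32 rose and 1 fell. Scml2 was above 98.3% of them, 1.85 above their median. On one side of Scml2, the connexin gene Gja6 (0.231 and 0.315 RPKM in EloA_WT, 0.486 and 0.630 in EloA_K754R) had a change of 0.82 with a limma adjusted p of 0.110. On the other side Rai2 and Scml1 stood at no more than 0.104 RPKM in every column. The part of the chromosome's shift in the value of Scml2 was not tested.

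Scmh1, the other Scm family gene that passed the filter, had overlapping values in the 3 Elongin A groups. Its RPKM was 0.906 and 0.617 in EloA_WT, then 0.772 and 0.661 in EloA_K754M, 0.714 and 0.588 in EloA_K754R, 0.998 in CJ7_WT and 1.13 in Eed_null. In Eed_null it was above all other columns, while the changes in the mutants were -0.06 and -0.18 (SE 0.22). Both took the other sign when library medians were made equal, at 0.07 and 0.01. The 1019 tested genes of chromosome 4, which carries Scmh1, had medians of -0.04 in EloA_K754M and -0.305 in EloA_K754R. In EloA_K754R 2 of them rose and 76 fell, and Scmh1 was above 60.3% of them. Scml4 stood at 0.0196 and 0.0384 in EloA_WT, then 0.0161 and 0.109 in EloA_K754M, 0.0253 and 0.0487 in EloA_K754R, 0.0133 in CJ7_WT and 0.0215 in Eed_null, from 22 to 153 reads, and did not pass the filter of a mean of 0.1 RPKM. Its second library was the higher in each of the 3 groups, as was the median of the almost silent genes. The MBT gene L3mbtl4, which is outside the set, had the same order (0.0045 and 0.0341 in EloA_WT, then 0.0054 and 0.111 in EloA_K754M, 0.0065 and 0.0390 in EloA_K754R).

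**Figure D4:**
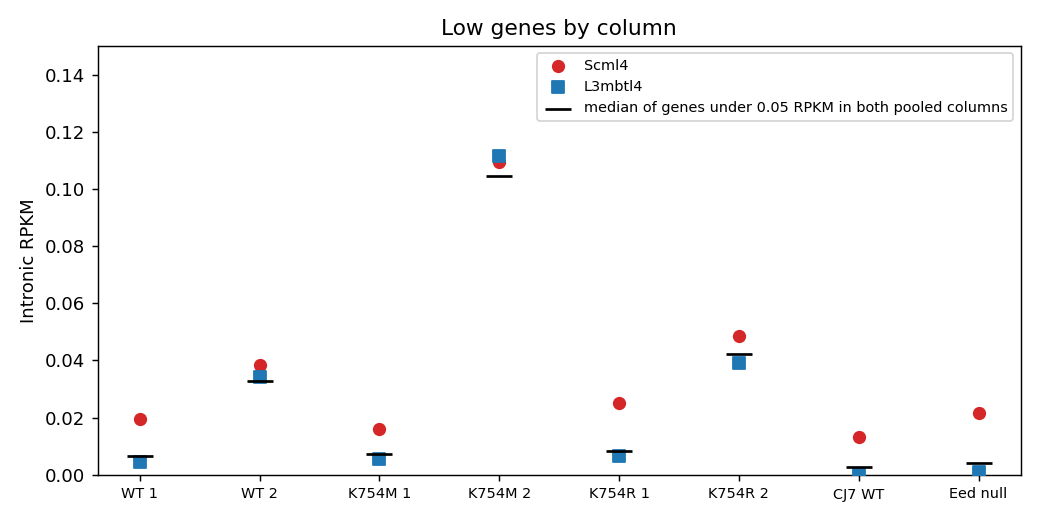
Intronic RPKM of Scml4 (circles) and L3mbtl4 (squares) in each column, with the median of the 6748 genes under 0.05 RPKM in both pooled columns (dashes). In all 3 Elongin A groups the second library is the higher for both genes and for the median, the most in EloA_K754M, where Scml4 is 0.0161 and 0.109.

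L3mbtl2 was lowest in EloA_K754M. Its RPKM was 2.19 and 2.69 in EloA_WT, 1.91 and 1.84 in EloA_K754M, and 2.50 and 2.39 in EloA_K754R. Both EloA_K754M libraries were below the other 4, while EloA_K754R lay between the EloA_WT libraries. The changes were -0.36 in EloA_K754M (SE 0.14, limma adjusted p = 0.303) and 0.01 in EloA_K754R. Chadl, which overlaps L3mbtl2 on the opposite strand, stood at 1.65 and 2.17 RPKM in EloA_WT and 1.39 and 2.09 in EloA_K754M. L3mbtl3 had the smallest differences: 0.522 and 0.529 in EloA_WT, 0.448 and 0.602 in EloA_K754M and 0.479 and 0.478 in EloA_K754R. Its EloA_K754M libraries straddled EloA_WT and those of EloA_K754R were below it, with changes of -0.01 and -0.11 (SE 0.18), which became 0.12 and 0.08 with equal library medians.

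Mbtd1, the highest of the set in each Elongin A library, was lower in both mutants without being called. Its RPKM was 5.92 and 5.17 in EloA_WT, then 4.62 and 3.91 in EloA_K754M, 4.78 and 4.53 in EloA_K754R, 4.65 in CJ7_WT and 3.89 in Eed_null. Both EloA_WT libraries were above every other column. The changes were -0.37 (SE 0.14, limma adjusted p = 0.286) and -0.25 (SE 0.14, adjusted p = 0.328). The 1314 tested genes of chromosome 11, which carries it, had medians of -0.46 in EloA_K754M and -0.56 in EloA_K754R, and 152 of them fell and 1 rose in EloA_K754R. Mbtd1 was thus 0.09 and 0.32 above the median of its chromosome. Of its neighbours in EloA_K754R, Utp18 had a change of -0.25, the nucleoside diphosphate kinase genes Nme2 and Nme1 had -1.01 (adjusted p = 0.0659) and -0.45, and none was called. The part of the chromosome in these values was not tested.

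Counted over the set, 0 of the 7 tested genes were called in EloA_K754M against EloA_WT (limma, adjusted p under 0.05), where 0.218% of all genes were. At an unadjusted p under 0.05 there were 3, and 2334 of the 15161 genes tested, and limma's voom on recovered reads also called 0. Both libraries lay above both EloA_WT libraries for 1 of the 7 genes (17.0% of all genes tested) and below them for 4 (27.2%). In EloA_K754R, 2 of 7 were called, both higher; 3.48% of all genes were called in either direction and 0.686% higher. Of the 7, 3 lay above both EloA_WT libraries (18.0% of all genes tested) and 2 below (38.8%). Scml4, not tested, overlapped in each comparison. Between EloA_K754M and EloA_K754R, 1 of 7 was called, lower in EloA_K754M (0.29% of all genes in either direction, 0.178% lower), 0 lay above and 4 below (31.9% and 18.6% of all genes tested). Both comparisons with EloA_WT use the same 2 control libraries. The median change of the 7 genes was -0.36 in EloA_K754M, 0.01 in EloA_K754R and -0.37 between the mutants, beside -0.06, -0.14 and 0.09 for all genes. With equal library medians these became -0.23, 0.20 and -0.43 for the 7 genes and 0.07, 0.05 and 0.02 for all genes.

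**Figure D5:**
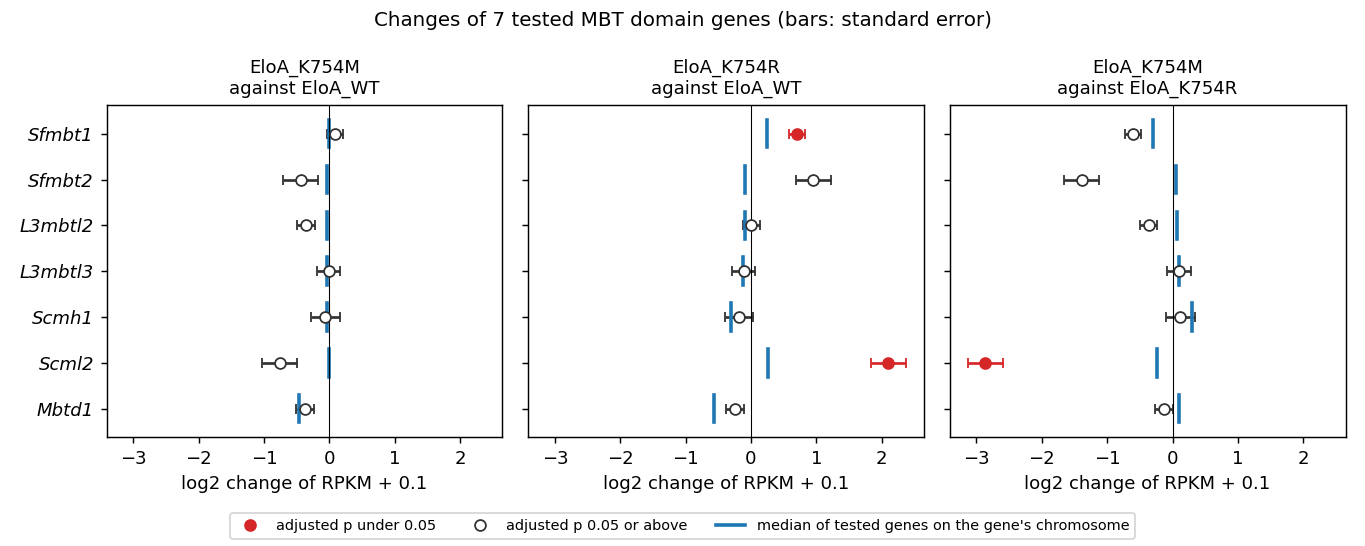
Changes of log2(RPKM + 0.1) of the 7 tested genes in the 3 comparisons of Elongin A groups (points, with standard errors; filled red where the limma adjusted p is under 0.05), and the median of the tested genes on the same chromosome (blue ticks). Scml2 and Sfmbt1 are called in EloA_K754R against EloA_WT, at 2.11 and 0.70, and Scml2 between the mutants, at -2.87.

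The calls of Scml2 and Sfmbt1 in EloA_K754R rest on all 6 libraries. Leaving out any 1 library, which removes 1 of 3 residual degrees of freedom, kept the direction and put the adjusted p of Scml2 between 0.0847 and 0.193, with changes of 1.74 to 2.47, and that of Sfmbt1 between 0.0949 and 0.230, with changes of 0.61 to 0.80. Subtracting the median of the almost silent genes from each library gave 0.0547 and 0.0674, and a fit of the 2 compared groups alone 0.0843 and 0.0949; without a filter on low values Sfmbt1 had 0.0703. The difference of Scml2 between the mutants had an adjusted p of 0.0398 and 0.0412 without replicate 1 or 2 of EloA_WT, 0.122 and 0.212 without replicate 1 or 2 of EloA_K754M, and 0.233 and 0.224 without replicate 1 or 2 of EloA_K754R. Its size was then between -3.05 and -2.69, and the low-gene subtraction gave 0.0649.

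Genes whose proteins work with these 8 showed few calls. Of 13 PRC1.6 partners of L3mbtl2 none was called in the 3 comparisons. The widest changes were -0.56 for Pcgf6, its defining RING-finger subunit, in EloA_K754M (limma adjusted p = 0.106), and -0.81 for the deacetylase gene Hdac1 (0.0514) and 0.70 for Yaf2 (0.108) in EloA_K754R. Between the mutants the widest was -1.01 for Yaf2 (0.101). Of 12 canonical PRC1 partners none was called, with -1.18 and -1.14 for the chromodomain gene Cbx2 in the mutants and -0.53 for Phc1 in EloA_K754R (5.10 and 5.41 RPKM in EloA_WT, 3.52 and 3.68 in EloA_K754R, adjusted p = 0.0648). Among 16 TIP60 subunits in the table, 1 fell in EloA_K754R, the subunit gene Meaf6 (-0.76, limma adjusted p = 0.0401). Of all 15161 genes tested 423 fell there, and 3.48% were called in either direction. The median of the 16 subunits was -0.27, beside -0.14 for all genes. Of 10 tested PRC2 subunits, 11 LSD1 and CoREST partners, 5 genes imprinted through maternal histone methylation and 2 YY1-family genes (Yy1 and Zfp42), none was called, and their medians lay between -0.15 and 0.14 in both mutants. The PRC2 subunit gene Ezh1 had -0.90 in EloA_K754M (adjusted p = 0.0977). L3mbtl1, the founding MBT gene of its family, had 0.49 and -0.19 without a call. These lists were written with earlier results of the data known.

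In Eed_null against CJ7_WT the same partner lists held 1 gene past 2-fold, Smoc1, a secreted matrix protein gene among those imprinted through maternal histone methylation (0.993 and 2.42 RPKM, log2 1.21). Gab1, Slc38a4, Phf17 and Xist of that list stood at 8.24, 3.07, 34.1 and 23.5 RPKM in CJ7_WT and 5.74, 4.76, 29.3 and 13.1 in Eed_null. Strand handling was not given, so these values, that of Xist included, may hold reads of RNA from the opposite strand. Cbx2 and Cbx8 of canonical PRC1 had 0.94 and 0.89, E2f6 of PRC1.6 0.59, and Zfp42, a YY1 relative and pluripotency marker, -0.89. Markers of other lineages were low. The 10 trophoblast markers summed to 2.01 RPKM in CJ7_WT and 3.75 in Eed_null, with Ascl2 and Cdx2 at 0 in CJ7_WT and none at 0 in Eed_null, and none of the 5 compared was past 2-fold on the offset scale. Their median was 0.87, and the highest changes were those of the keratin genes Krt18 (0.112 and 0.320 RPKM, log2 0.99) and Krt8 (0.147 and 0.368, log2 0.92). Tfap2c, the highest of the 10 in level in both columns, stood at 1.09 and 2.07 RPKM. Gata3 had 0.14, and Eomes went the other way (0.227 and 0.212 RPKM, log2 -0.07). Elf5, under the filter, was also lower (0.0128 and 0.0097 RPKM). The 8 primitive endoderm markers summed to 2.88 and 3.49, with Foxa2 at 0 in both, and 3 of 5 compared (Gata4, Gata6 and Sox7) were past 2-fold higher. Lama1, the highest of the 8 in both columns, went the other way (2.30 and 1.70 RPKM, log2 -0.42). The 10 germ cell markers summed to 4.07 and 7.36, and 4 of 10 were past 2-fold higher, Sycp1 (0.241 and 1.67 RPKM, log2 2.38), Tex101 (1.34), Mael (1.12) and Ddx4 (1.11). Of 11 fibroblast markers compared, Thy1 (0.0662 and 0.324 RPKM, log2 1.35) was past 2-fold higher. Fn1, the highest of these, was lower (10.2 and 6.99 RPKM, log2 -0.54), as was Postn (-0.05). Over all genes compared, 6.12% were past 2-fold higher. Cbx8, Sox7 (0.0388 and 0.192 RPKM), Tex101 (0.0906 and 0.384) and Thy1 were under 0.1 RPKM in CJ7_WT. They passed the filter only through Eed_null, which favours a higher value there. The part of cells of these lineages in the level of Sfmbt2 was not tested. In EloA_K754R 2 of 8 tested germ cell markers rose, Asz1 (2.34, limma adjusted p = 0.0325) and Sohlh2 (1.72, adjusted p = 0.0343), where 0.686% of all genes rose. Of the 8, 5 had a positive change, the median was 0.36, and Dazl (-0.996), Sycp3 (-0.495) and Ddx4 (-0.425) were on the other side without a call.

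The genes most like each of 3 members over the 8 columns were found by the root mean square difference of log2(RPKM + 0.1), each gene centred on its own mean, over 15841 genes. For Sfmbt2 the nearest were Prr18 (difference 0.48), Chst15, Lmo1, Hrnr and Dppa3, all of them highest in Eed_null, at 0.834 to 2.01 RPKM. For Scml2 they were Rassf10 (0.50), Actn2, Trav4-3, Asz1 and Dusp2; Actn2, a muscle actinin gene, stood at 0.491 and 0.352 RPKM in EloA_WT, 0.312 and 0.307 in EloA_K754M and 1.36 and 1.04 in EloA_K754R. For Sfmbt1, added after its values were seen, they were Bmpr1a, a BMP receptor gene (0.059), followed by Shroom2, Dgkd, Wdfy2 and Fndc3a. Bmpr1a, Wdfy2 and Fndc3a lie on chromosome 14 with Sfmbt1. Prr18, Rassf10 and Trav4-3 were listed at 0 in every EloA_WT and EloA_K754M library, and Dusp2 in both EloA_K754M libraries. The matches of these genes therefore rest in part on the offset. The measure grows with how much a gene varies, so it cannot be compared between the 3 members. These are descriptions over 8 columns that share libraries and depth.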

How the data were processed

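Nascent RNA was measured in 10 samples of 5 groups, and 1 table held the values. The authors deposited intronic RPKM; per the submitters' processing notes reads were aligned with BWA to mm9. The BWA version, the counter, the annotation, strand handling and the depth used for scaling were not given in the sources used here. Whole reads, within 0.01 of a read, could be recovered from the RPKM steps for 20810 of 20817 genes (99.97%), and also from both columns that the headers call averages, as pooled reads would give.

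The 6 libraries entered a single limma model of 3 groups (version 3.58.1, R 4.3.3, variance trend) on log2(RPKM + 0.1). Of the table's genes, 15161 reached the required mean of 0.1 RPKM. Tests were two-sided, p-values were adjusted by Benjamini and Hochberg's method over these genes, and the threshold was 0.05. The fit has 3 residual and 2.76 prior degrees of freedom, and the median standard deviation between replicates was 0.195 (log2). "Rose", "fell" and "called" mean past that threshold. The fit was tested on simulated data. Eed_null and CJ7_WT, 1 pooled column each, were compared as ratios over 14890 genes without a test, with exact 95% intervals (scipy 1.17.1) for the read counts. Intervals cover counting error only, since reads without molecular identifiers are not independent molecules.

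Replicate numbers were checked as pairs: deviations of same-numbered libraries from their group means correlated at 0.166, 0.197 and 0.152 across genes. No label says what a number marks, so the pairing comes from the data, and the fit with the replicate block is given beside a result where it changes the call.

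The members, the lists and the alternatives were chosen with earlier results of these data known. The text names all members, of each list genes called or past 2-fold, or else some with the widest changes, the 5 genes most like Sfmbt2 and Scml2, and, of the 3 table genes on each side of a member, those that bear on a result; some are not reported here. Neighbours and overlaps come from GENCODE M21 on GRCm38, used only for order and names, since the files use mm9; 22887 genes matched by identifier. Promoter windows come from RefSeq on GRCm38.p6. Alternatives were other offsets and filters, equal medians, quantile normalization, the block, 2 groups alone and each library left out; voom on recovered reads and subtraction of the low-gene median were added after seeing the data.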

Additional observations from a re-analysis of the deposited data

Results flagged for a closer look

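Scml2 differed between the mutant lines, tested as the contrast between them: the difference of EloA_K754M from EloA_K754R was -2.87 on the log2 scale (limma adjusted p = 0.0294). Both EloA_K754M libraries (0.415 and 0.302 RPKM) were below, and both EloA_K754R libraries (3.25 and 3.19) above, the EloA_WT libraries (0.891 and 0.501). The members were chosen with these values known, and substitution and line cannot be told apart.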

How the results depend on the processing

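With 2 libraries a group, counts of called genes depended on the fit. Called genes numbered 33 in EloA_K754M, 527 in EloA_K754R and 44 between the mutants. They became 16, 160 and 26 without a filter, 16, 324 and 68 when library medians were made equal, 17, 333 and 90 after quantile normalization, 227, 1777 and 355 with the replicate block, 3, 1 and 26 with the 2 compared groups alone, and 343, 1333 and 452 with voom on recovered reads. Low-gene subtraction gave 8 and 227 in the mutants, and a mean of at least 0.5 RPKM gave 12 between them. Leaving out 1 library gave 2 to 52, 1 to 9 and 5 to 62. In EloA_K754R, 104 genes were higher and 423 lower; equal medians gave 164 and 160, quantile normalization 169 and 164. Called members in EloA_K754R went from 2 to 3 with the replicate block and with voom, to 1 without a filter and to 0 with 2 groups alone, with low-gene subtraction and without any 1 library. Between the mutants they went from 1 to 2 with the replicate block, to 3 with voom (Sfmbt1 and Sfmbt2 beside Scml2), to 0 with low-gene subtraction and to between 0 and 1 with 1 library left out. Beyond the calls of Sfmbt2 given above, the replicate block changed no other call of a member. Uncalled changes that took the other sign were those of Scmh1 in EloA_K754M and EloA_K754R (0.0666 and 0.0107 with equal medians, 0.0343 and 0.0120 after quantile normalization, -0.305 to 0.184 and -0.427 to 0.0626 with 1 library left out), of L3mbtl3 in both (0.116 and 0.0816 with equal medians, 0.0752 and 0.0671 after quantile normalization, and -0.190 to 0.168 in EloA_K754M with 1 library left out), of L3mbtl3 between the mutants (-0.0791 to 0.279 with 1 library left out) and of L3mbtl2 in EloA_K754R (-0.0017 with voom, -0.134 to 0.151 with 1 library left out). A fit without 1 library assumes that the lone sample varies like the other groups. In Eed_null Sfmbt2 was the 1 member past 2-fold under every alternative run, at 3.55 to 4.57. The causes were not tested. Scml4, at 22 to 153 reads a column, was too low for any comparison.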
